A study of Mus musculus with 17 samples.

Results

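The genes that encode the proteins of the cytosolic ribosome were followed through both experiments of the series. Members were chosen by their symbol, as Rps or Rpl followed by a number, the letter a or a P-stalk number, with an optional ending a, x, l or l1. This gave 85 genes of the 43430 in the deposited tables, 33 of the small subunit, 49 of the large subunit and 3 of the P-stalk. By annotation, 82 are protein-coding and 3 are pseudogene models (Rps4l, Rpl6l and Rps12l1). Rps3a1, Rpl36al and Fau also encode or carry ribosomal proteins but do not match the symbol rule, and are given only where named.

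RNA sequencing had been done on sorted alveolar epithelial type 2 (AT2) cells, which make lung surfactant, from C57BL/6J mice aged 2 months. A first set of 8 libraries was made from 3 ng of RNA with poly(A) selection, 4 from naive mice given vehicle and 4 from naive mice given ISRIB, a small molecule that acts on the translation factor eIF2B, each taken 24 h after the dose. A second set of 9 libraries was made from 0.35 ng with a total RNA kit, 4 from naive animals and 5 from animals given bleomycin 14 days earlier, a drug that injures the alveolar epithelium. All 9 carry vehicle as their treatment and saline in their titles. Libraries are named by group and by the replicate number of the labels, and since no label says that replicates are separate animals, p-values measure only the spread between these libraries. Kit, RNA input and depth differ between the sets, so ISRIB was set only against vehicle and bleomycin only against naive.

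A cytosolic ribosome holds 1 copy of most of its proteins, and cells therefore make these proteins in matched amounts from many unlinked genes. Their mRNAs belong to the TOP class, which begins with a tract of pyrimidines at the 5′ end. Through that tract the kinase complex mTORC1 and the RNA-binding protein LARP1 set how much of each mRNA is translated, so that the output of ribosomal protein can change while mRNA levels stay level. RNA sequencing reads the mRNA level only.

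The start sites of genes to which the results below return are shown with 10 bases before and 20 bases from the RefSeq start on (GRCm38.p6, 5′ to 3′ on the gene's strand), with the longest run of C and T in capitals. Rpl14, Rps9 and Rps3 were lower after bleomycin, Rps2 was higher, and Rps27 and Rps27l are paralogs.
Rpl14, chr9:120571507-120571536, plus strand: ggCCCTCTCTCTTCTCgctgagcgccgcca
Rps9, chr7:3704031-3704060, plus strand: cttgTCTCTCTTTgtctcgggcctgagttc
Rps3, chr7:99483690-99483719, minus strand: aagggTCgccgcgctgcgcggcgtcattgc
Rps2, chr17:24720053-24720082, plus strand: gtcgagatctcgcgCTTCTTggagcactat
Rps27, chr3:90213629-90213658, minus strand: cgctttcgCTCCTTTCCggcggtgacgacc
Rps27l, chr9:66946076-66946105, plus strand: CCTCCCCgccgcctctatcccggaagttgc
The Rpl14 window holds a run of 14 and those of Rps9 and Rps27 a run of 9 each, while the Rps3 window has no run longer than 2 at the RefSeq start. Rps27l has a further RefSeq start, not printed.

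Of the 85 members, 62 matched a symbol in the RefSeq promoter table. A pyrimidine run of 8 or more in this 30-base window was found in 24 of the 62 (38.7%), against 13% of 27025 genes. The run may lie anywhere in the window, and for a gene with several RefSeq starts the longest was taken. Since the 5′ ends of the mRNAs in these cells were not mapped, a window without such a run does not show that the tract is absent. For runs of 6, 7, 9 and 10 or more the shares were 61.3%, 53.2%, 37.1% and 29.0% of members, against 32.1%, 20.5%, 8.34% and 5.59%. In the 300 bases around the start, read on both strands, CCGGAAG was present in 40.3% of members against 9.93% of all genes, GGGCGG in 61.3% against 38.2%, and AAGATGGCG in 6.45% against 1.64%. CACGTG was in 9.68% against 8.09%, and TATAAA in 11.3% against 15.7%. Shorter strings were more common throughout: GGAAG, whose reverse complement is CTTCC, was in 91.9% against 73.9%, TTTCC in 88.7% against 64.4%, CTTTCC in 53.2% against 29.3% and TATAA in 29.0% against 28%. Except for CTTTCC, each of these shorter strings lies within another string named here, so the shares overlap. In all, 11 strings and 5 run lengths were looked at, and the share of 1 string, a longer palindrome, is not shown. The shares describe sequence and name no factor as bound.

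Depth was 10493574 to 15727139 counts per library in the poly(A) set and 3295257 to 6333166 in the total RNA set. Markers of AT2 cells were present in every library (a list of 12 genes summed to 232131 to 235651 CPM, counts per 1000000 counts of a library, in the poly(A) set and to 58619 to 112807 in the total RNA set, lowest in bleomycin 1), and lymphocyte markers summed to at most 1.52 CPM. Airway epithelium markers summed to 2405 to 4271 CPM in the poly(A) set and 452 to 1002 in the total RNA set. Endothelial markers summed to 45.6 to 68.2 and 23.3 to 92.0 CPM. In the total RNA set 21.1% to 32.2% of counts fell on models that resemble ribosomal RNA, so the members' share is also given without them. Among the bleomycin libraries, 1 and 4 stood apart in the members' level, as described further on, and bleomycin 4 had the fewest genes detected (13940, against 15863 to 19763 in the other 8).

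Member mRNAs took 1.93% to 2.05% of all counts in the vehicle libraries and 1.92% to 2.10% in the ISRIB libraries. In the naive libraries they took 0.797%, 0.917%, 0.826% and 0.832%, and in bleomycin 1 to 5 they took 0.577%, 0.902%, 0.943%, 0.735% and 0.885%. With the ribosomal-RNA-like models left out, the naive libraries ranged from 1.10% to 1.21% and bleomycin 1 to 5 gave 0.843%, 1.27%, 1.23%, 0.993% and 1.12%. The treated and control ranges overlapped in both sets. The bleomycin libraries lay on both sides of the naive ones.

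**Figure D1:**
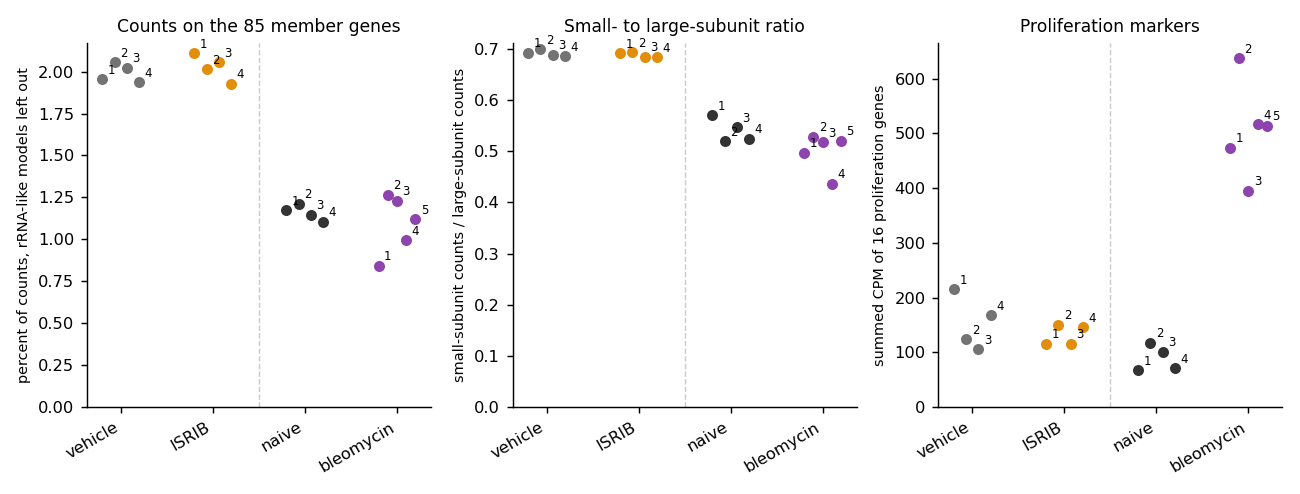
Each point is 1 library, numbered by replicate: left, percent of counts on the 85 members with ribosomal-RNA-like models left out; middle, summed small-subunit counts over summed large-subunit counts; right, summed CPM of 16 proliferation genes. The dashed line parts the poly(A) set from the total RNA set. In the middle panel the P-stalk genes are counted with the large subunit. Bleomycin 1 (0.843%) and bleomycin 4 (0.993%) lie below all other total RNA libraries on the left, and all 5 bleomycin libraries lie above the naive ones on the right.

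Levels were compared between members as CPM per kilobase of the principal transcript. In vehicle libraries the median member stood at 246 CPM per kilobase (quartiles 140 and 378, 80 members). By this measure the highest were Rps15 (831 ± 16.6, SD, n = 4), Rps27 (750 ± 34.1), Rps21 (727 ± 20.3), Rplp1 (690 ± 15.9) and Rpl8 (641 ± 24.7). Rps27 and Rps21 differ by less than the SD of Rps27, while the other neighbours in this order differ by more than either SD. The lowest were Rpl24 (4.53 ± 1.02), the pseudogene model Rps4l (11.8 ± 2.66), Rps15a (27.5 ± 2.00), Rpl7l1 (27.7 ± 2.31) and Rpl15 (51.6 ± 3.34). Rpl24 encodes a standard large-subunit protein, and its exons share bases with Gm28037, a model on the same strand, so that its counts are uncertain. Long annotated transcripts such as that of Rps15a lower the value per length.

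In naive total RNA libraries the median member stood at 107 CPM per kilobase (79 members), with Rplp1 (421 ± 8.76, SD, n = 4), Rpl13a (343 ± 23.0), Rpl8 (311 ± 8.59), Rpl4 (286 ± 6.69) and Rps12 (269 ± 20.5) highest. Rps4l (4.57 ± 2.05), Rpl39 (10.2 ± 2.24), Rpl15 (11.2 ± 1.15), Rpl18 (13.5 ± 1.34) and Rps15a (14.8 ± 2.99) were lowest. The order of members in vehicle and naive libraries was alike but not the same, with Spearman's rho 0.80 over 79 genes, whose lengths enter both values. Divided by the union of all annotated exons instead, the highest were Rplp1, Rps15, Rpl8, Rplp0 and Rpl4 in the vehicle group, and Rplp1, Rpl8, Rpl4, Rpl13a and Rpl36 in the naive group.

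The members varied little between libraries of a group, except after bleomycin. The median SD of log2 CPM over members was 0.056 in vehicle, 0.079 in ISRIB and 0.15 in naive libraries, against 0.13, 0.13 and 0.21 for all genes tested. In bleomycin libraries it was 0.35, against 0.33 for all genes. Members also had more counts behind them than most genes (median 220 CPM against 21.9 in the poly(A) set, 80.9 against 20.5 in the total RNA set). The part of this in their SD was not tested.

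Some members were at or near 0. Rpl39l had 0 counts in every library of both sets, and Rpl3l, a form of Rpl3 known from striated muscle, had 1 count over the 8 poly(A) libraries and 5 over the 9 total RNA libraries. Rpl10l, a retrogene of Rpl10 known from testis, had 0 and 2. The pseudogene models Rps12l1 (1 and 1) and Rpl6l (3 and 2) were as low. These 5 were not tested in either set, and Rpl24 (73 counts in the 9 libraries) was not tested in the total RNA set, leaving 80 members tested for ISRIB and 79 for bleomycin.

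The comparison of ISRIB with vehicle asks whether 24 h of the compound moved ribosomal protein mRNAs in AT2 cells of uninjured mice. None of the 80 members passed a Benjamini-Hochberg adjusted p of 0.05 by edgeR's quasi-likelihood test, where 2.2% of 12054 genes passed (1.1% higher and 1.1% lower). By DESeq2 and limma-voom the count was also 0, and at an unadjusted p under 0.05 it was 1 (1934 of all genes). The median log2 fold change of members was 0.011, with 48 higher and 32 lower, and their median absolute change was 0.032, against 0.10 for all genes. Their levels were higher than those of most genes (median 220 CPM against 21.9) and their standard errors smaller (median 0.055 against 0.095). For 76 of the 80 the 95% interval of the log2 fold change lay within 0.25 of 0 on both sides. The 4 wider ones are Rps27l, Rps4l, Rpl7l1 and Rpl24.

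Rps27l, a paralog of Rps27 known as a p53 target, had the lowest p of the members. Vehicle libraries 1 to 4 held 43.8, 45.1, 44.9 and 42.9 CPM and ISRIB libraries 1 to 4 held 40.9, 37.7, 35.7 and 40.4. Every ISRIB library lay below every vehicle library, for this member alone of the 80 (4.39% of all genes lay so, and 4.26% with every ISRIB library above, which no member did). The log2 fold change of -0.19 (SE 0.066, unadjusted p 0.00969) did not pass adjustment over all genes (adjusted p 0.150 by edgeR). Rps27 itself went the other way, from 259 ± 11.8 to 272 ± 17.2 CPM (SD, n = 4 each), a difference of 0.07 (adjusted p 0.561 by edgeR).

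Rpl24 had the highest log2 difference, 0.39, at 2.37 to 4.0 CPM in vehicle and 3.28 to 5.09 in ISRIB libraries (adjusted p 0.396 by edgeR). The groups overlapped, and the 95% interval ran from -0.06 to 0.85. Rpl7l1, a paralog of Rpl7 known as a nucleolar assembly protein, was at 67.6 to 80.8 CPM in vehicle and 76.2 to 85.8 in ISRIB libraries, a log2 difference of 0.13 (adjusted p 0.339 by edgeR). Here too the groups overlapped.

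The 32 small-subunit members had a median log2 fold change of 0.0038 and the 45 large-subunit members one of 0.022. The P-stalk genes, whose products Rplp0, Rplp1 and Rplp2 recruit elongation factors, stood at -0.0085, -0.07 and -0.03, with adjusted p of 0.960, 0.565 and 0.853 by edgeR. The sign for Rplp0 turned with library totals and with GC and length trends removed, and each of the 3 intervals held 0. Within the set, the members of single libraries moved together by small amounts. Set against the vehicle mean, their median was 0.08 in ISRIB 1, -0.03 in ISRIB 2, 0.05 in ISRIB 3 and -0.06 in ISRIB 4, and -0.05, 0.04, 0.03 and -0.03 in vehicle 1 to 4. ISRIB 2 and ISRIB 4 also held the highest sums of 10 macrophage and monocyte markers (3736 and 4066 CPM, against 2028 to 2441 in the other 6). Only 4 of these 10 markers had enough counts to be tested, and 0 were called. The part of these markers in the members' values was not tested, and with both libraries left out the members' median was 0.066 with 0 called.

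**Figure D2:**
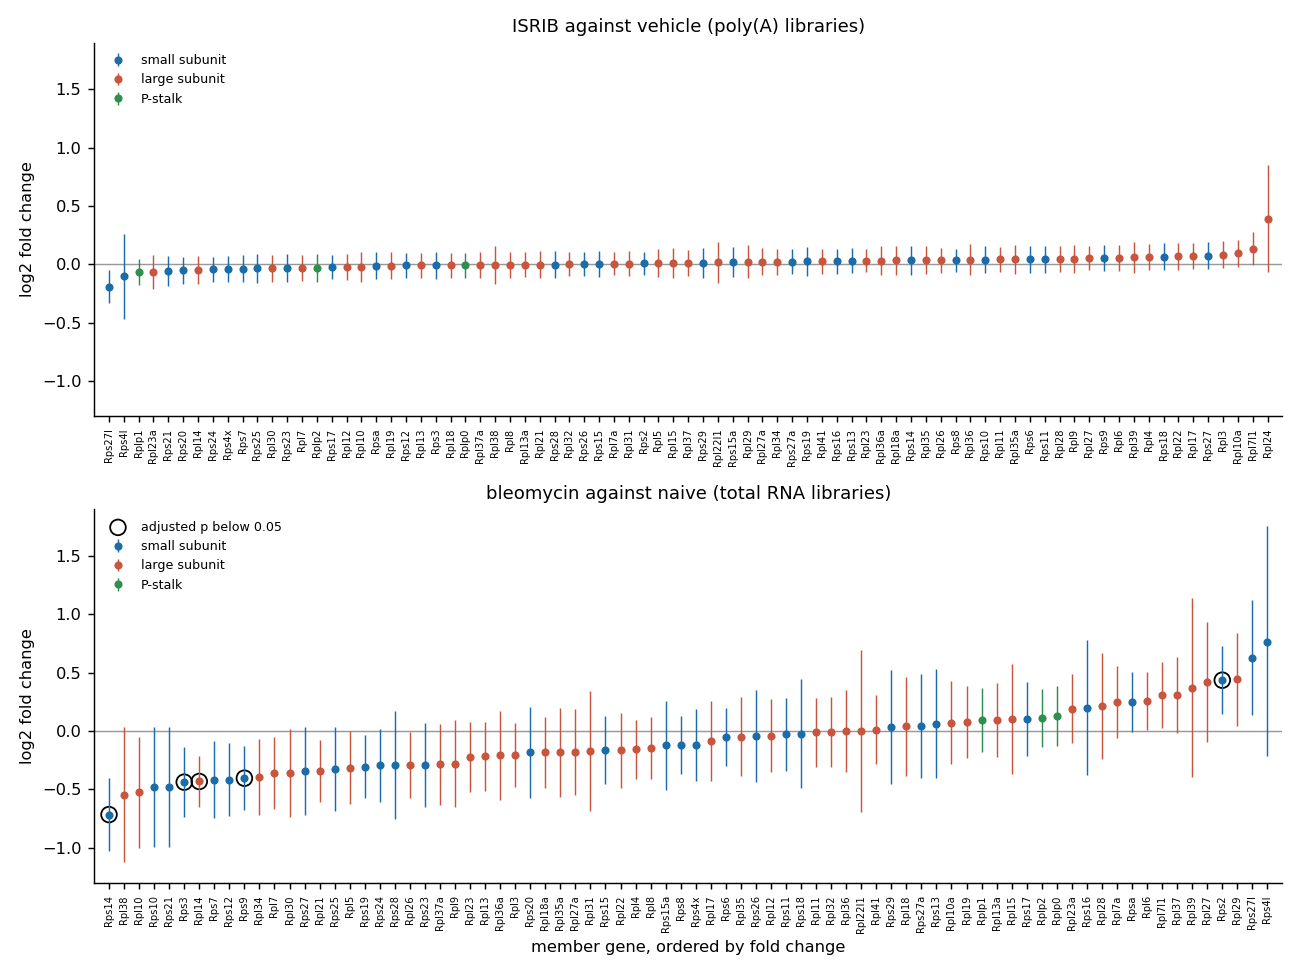
Log2 fold change with its 95% interval, coloured by subunit and ordered within each panel, for 79 of the members tested after ISRIB and 78 of those tested after bleomycin, on 1 scale. Rings mark an adjusted p under 0.05 by edgeR. After ISRIB the points lie near 0 and none is ringed, and after bleomycin 5 of those shown are ringed, 4 of them lower.

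The comparison of bleomycin with naive libraries asks how the same genes stand 14 days after injury. Of 79 members tested, 6 passed (7.59%), against 20.5% of 11223 genes. Of these, 5 were lower (9.31% of all genes were called lower), among them Rps14, Rpl14, Rps3 and Rps9, and Rps2 was higher (11.2% of all genes). At an unadjusted p under 0.05 there were 19 members (24.1%) and 33.3% of all genes. Members had more counts behind them than most genes (median 80.9 CPM against 20.5) and smaller standard errors (median 0.15 against 0.21). Their median log2 fold change was -0.12, with 52 lower and 27 higher, while that of all genes was 0.0026. The median absolute change was 0.21 for members and 0.31 for all genes. Such values from bulk cells cannot tell fewer cells of a type from less RNA per cell.

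Rps14 (ENSMUSG00000024608, chromosome 18, 60747098 to 60778546), a small-subunit gene whose loss of 1 copy is known from the 5q- syndrome, fell most among members called. Naive 1 to 4 held 218, 127, 175 and 155 CPM and bleomycin 1 to 5 held 86.0, 124, 109, 106 and 87.6. Every bleomycin library lay below every naive library, though naive 2 and bleomycin 2 were close. The log2 fold change was -0.72 (SE 0.15, adjusted p 0.00225 by edgeR).

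Rpl14 (ENSMUSG00000025794, chromosome 9, 120571444 to 120574654) encodes a large-subunit protein and had the tightest groups. Naive libraries held 126, 137, 131 and 130 CPM and bleomycin libraries 92.3, 94.9, 105, 97.8 and 94.1. The groups did not overlap, and bleomycin 1 and 4 were no lower than the others by more than the spread. The log2 fold change was -0.43 (SE 0.10, adjusted p 0.00562 by edgeR).

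Rps3 (ENSMUSG00000030744, chromosome 7, 99477896 to 99483738) lies at the mRNA entry channel of the small subunit and is also known as a DNA repair enzyme. It held 263, 240, 223 and 241 CPM in naive libraries and 127, 178, 237, 157 and 191 in bleomycin 1 to 5, so that bleomycin 3 lay inside the naive range. Its change was -0.44 (SE 0.14, adjusted p 0.0373 by edgeR). The snoRNA Snord15b lies within the gene on the same strand.

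Rps9 (ENSMUSG00000006333, chromosome 7, 3703993 to 3706897), a small-subunit gene that acts in decoding fidelity, held 256, 235, 244 and 200 CPM in naive and 148, 197, 217, 152 and 165 in bleomycin 1 to 5. Only bleomycin 3 overlapped the naive values. Its change was -0.41 (SE 0.13, adjusted p 0.0327 by edgeR).

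Rps2 (ENSMUSG00000044533, chromosome 17, 24718116 to 24721929), a small-subunit gene whose protein is a substrate of the methyltransferase PRMT3, rose. Naive libraries held 51.3, 60.5, 57.3 and 44.7 CPM and bleomycin 1 to 5 held 57.4, 86.8, 68.4, 72.7 and 76.2. Bleomycin 1 lay inside the naive range and the other 4 above it. The change was 0.43 (SE 0.14, adjusted p 0.0328 by edgeR). The snoRNA Snora64 lies within Rps2 on the same strand, so no strand setting would part their reads. Snhg9 overlaps Rps2 on the opposite strand, and without a known strand setting of the counting its reads cannot be told from those of Rps2.

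**Figure D3:**
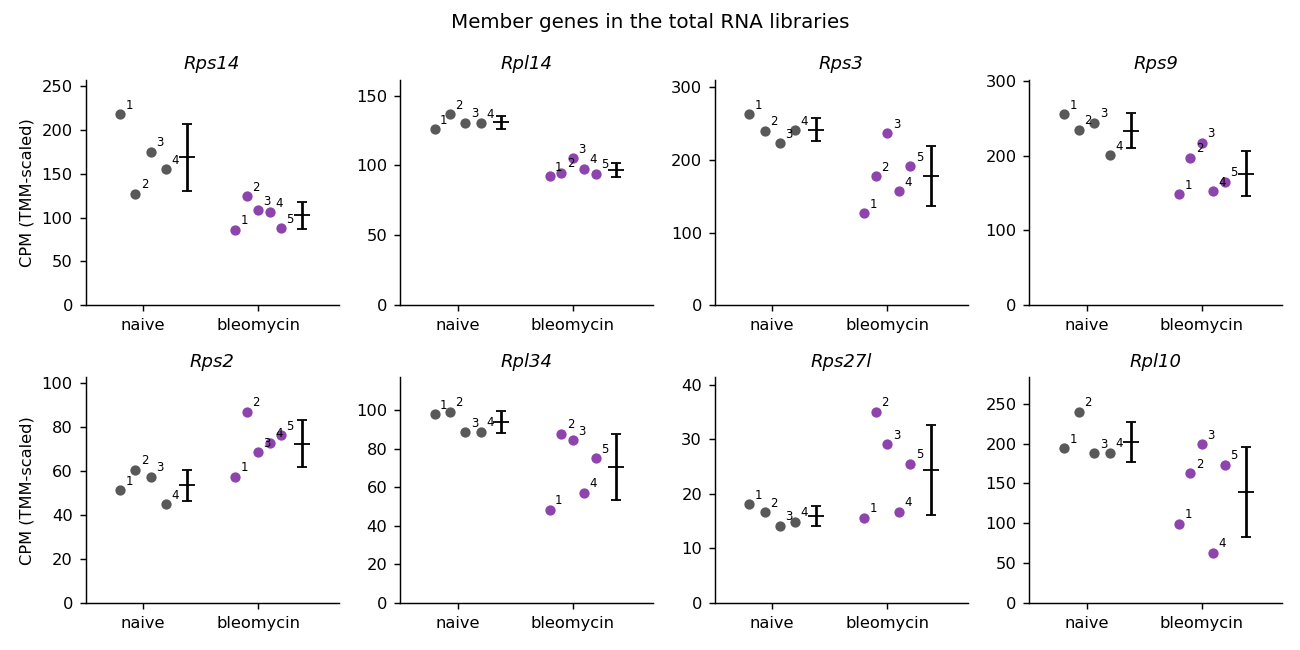
CPM in each total RNA library for the called members Rps14, Rpl14, Rps3, Rps9 and Rps2 and for Rpl34, Rps27l and Rpl10, which were not called. Points are libraries numbered by replicate, and the bar beside each group is the mean with its SD (n = 4 naive, n = 5 bleomycin). Rps14, Rpl14 and Rpl34 have groups that do not overlap, and bleomycin 1 and 4 are the lowest bleomycin libraries for Rpl10 (99.5 and 62.8 CPM) and Rps27l (15.6 and 16.7 CPM).

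The called members differ in how far they rest on single libraries. Over 20 alternative fits, Rps14 and Rpl14 were called lower in each, at -0.85 to -0.57 and -0.56 to -0.37. Rps9 and Rps2 were called in 12 of the 20 and Rps3 in 11, in the same direction in all 20. Without bleomycin 1 the adjusted p by edgeR was 0.0571 for Rps3 (-0.34) and 0.0560 for Rps9 (-0.35), and Rps2 was at 0.00900 (0.51). Leaving out bleomycin 4 gave 0.0686 for Rps3 (-0.39) and 0.0622 for Rps9 (-0.35), with Rps2 at 0.0374 (0.44). Rps2 did not pass without naive 1, naive 3, naive 4, bleomycin 2 or bleomycin 5, with the replicate block, or with GC and length trends removed, with or without that block (0.28 to 0.53 over the 20 fits, adjusted p by edgeR up to 0.167). Rps3 also did not pass without any 1 of the naive libraries or without bleomycin 2, and Rps9 without naive 1, 2 or 3 or without bleomycin 5. With library totals neither Rps3 nor Rps9 passed.

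With every bleomycin library below every naive library there were 4 members, Rps14, Rpl14 and Rpl34 among them (9.35% of all genes lay so), and with every bleomycin library above there were 0 (10.4% of all genes). Rpl34, a large-subunit gene, held 88.6 to 99.1 CPM in naive and 48.4 to 87.9 in bleomycin libraries, a difference of -0.40 that did not pass (adjusted p 0.0769 by edgeR). The lowest estimates among members not called were Rpl38 (-0.55, adjusted p 0.177) and Rpl10 (-0.53, adjusted p 0.109), both from edgeR. Rpl38, which is known for its part in translating Hox mRNAs, held 32.2 to 42.7 CPM in naive libraries and 26.2, 35.4, 32.8, 6.81 and 25.3 in bleomycin 1 to 5. Bleomycin 4 stood far below the rest there, with 22 counts. Rpl10, which joins the large subunit in its last cytoplasmic step, held 188 to 240 CPM in naive and 62.8 to 199 in bleomycin libraries, lowest in bleomycin 4 and 1.

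Among the 32 small-subunit members 5 were called (4 lower, 1 higher), or 15.6%, and among the 44 large-subunit members 1 (lower), or 2.27%, both below the 20.5% of all genes. Their medians were -0.14 and -0.11, and the difference between subunits was not tested. The 3 P-stalk genes stood higher, at 0.13 for Rplp0, 0.09 for Rplp1 and 0.11 for Rplp2, none past the threshold (adjusted p 0.507, 0.673 and 0.569 by edgeR), and the sign for Rplp2 turned with GC and length trends removed, as it did for Rplp0 when the replicate block was added. Naive and bleomycin libraries overlapped for each of the 3.

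The members' level differed between libraries of the bleomycin group. Against the naive mean, the median member stood at -0.53 in bleomycin 1, 0.05 in bleomycin 2, 0.10 in bleomycin 3, -0.39 in bleomycin 4 and -0.00041 in bleomycin 5, on the log2 scale. In bleomycin 1, 77 of 79 members lay below the naive mean, with 10 of them lower by more than 1, and the middle 50% lay between -0.82 and -0.32. In bleomycin 4, 54 of 79 lay below it, 7 by more than 1, and the middle 50% was wider, from -0.61 to 0.17. The naive libraries had medians of 0.0090, 0.08, -0.04 and -0.09. So 2 of the 5 bleomycin libraries lay well below the naive ones and 3 lay among them or slightly above.

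**Figure D4:**
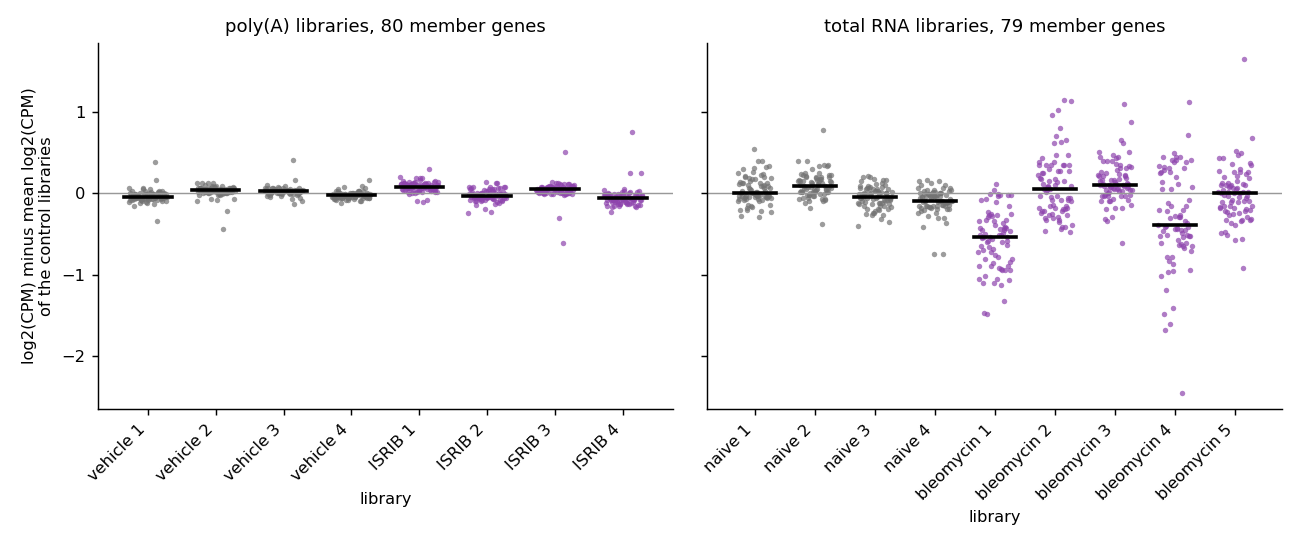
Each point is 1 member in 1 library, as log2 CPM minus the mean log2 CPM of the control libraries (vehicle at left, naive at right). Grey marks control and purple treated libraries, and bars are medians. The poly(A) medians lie between -0.06 and 0.08, while bleomycin 1 (-0.53) and bleomycin 4 (-0.39) lie below the rest and the points of bleomycin 4 spread most.

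The pattern differed between these libraries. In bleomycin 1 the median was -0.71 over small-subunit, -0.51 over large-subunit and -0.27 over P-stalk members. Bleomycin 4 gave -0.48, -0.29 and 0.26. The ratio of small- to large-subunit counts was 0.437 in bleomycin 4 and 0.497 in bleomycin 1, against 0.517 to 0.529 in the other bleomycin libraries and 0.520 to 0.570 in naive ones. In this ratio the P-stalk genes are counted with the large subunit, so it is not a contrast of the small- and large-subunit members alone. In bleomycin 2 the P-stalk median was 0.28, and in bleomycin 3 and 5 it was 0.12 and 0.09. Over the 79 members, the deviation of a library had a Spearman's rho with principal transcript length between -0.07 and 0.09 in all 5 bleomycin libraries, and with GC content of 0.21 in bleomycin 1, 0.23 in bleomycin 4 and -0.0033 to 0.10 in the others.

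These libraries also differed in other measures. Bleomycin 1 had the lowest AT2 marker sum (58619 CPM, against 98109 to 102743 in naive and 72995 to 112807 in the other bleomycin libraries) and the lowest macrophage marker sum (273 CPM), and bleomycin 4 the fewest genes detected. The nuclear RNA Malat1 took 4.24% of counts in bleomycin 1 and 3.09% in bleomycin 4, against 3.64% to 4.78% in naive libraries and 1.36% to 2.59% in bleomycin 2, 3 and 5. Mitochondrial mRNAs took 0.778% and 0.669% of counts, against 0.880% to 1.42% in naive and 0.870% to 0.939% in the other bleomycin libraries. The part of these measures in the members' level was not tested.

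Without bleomycin 1 there were 2 members called lower (Rpl14 and Rps14) and 6 higher (Rpl29, Rpl6, Rpl7a, Rps2, Rps27l and Rpsa), with a median of -0.04, while 23.4% of all genes were called. Without bleomycin 4 there were 3 lower (Rpl14 and Rps14 among them) and 2 higher (Rps2 and Rps27l), with a median of -0.07, beside 21.6% of all genes called. Leaving out bleomycin 3, the library with the highest members' median, gave 10 lower and 1 higher and a median of -0.17 (19.1% of all genes called). Leaving out naive 2 gave 2 lower and 1 higher and a median of -0.06 (15.1% of all genes called). With both bleomycin 1 and 4 left out, 2 were lower and 9 higher and the median was 0.06 (26.5% of all genes called), but these libraries were picked for their low members' level, so that rise follows from the choice and supports nothing.

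Other groups of genes moved between naive and bleomycin libraries beside the members. All 10 markers of transitional epithelium were called higher (summed level 417 to 480 CPM in naive and 926 to 1219 in bleomycin libraries), as were 11 of 14 proliferation genes tested (67.1 to 118 and 396 to 637 CPM) and 7 of 9 AT1 markers tested (1312 to 1570 and 2276 to 2571 CPM). The fibroblast list of 10 summed to 7.46 to 15.2 CPM in naive and 40.9 to 309 in bleomycin libraries, with 4 of 5 tested genes called higher and Lum at 0. Of the macrophage and monocyte markers, 4 of 10 were tested, 1 was called higher and 1 lower, and Marco was at 0, with sums of 676 to 869 and 273 to 801 CPM. Of 6 endothelial markers tested 2 were called higher, as were 2 of 7 airway epithelium markers, where 11.2% of all genes were. The part of these cell types in the members' values was not tested.

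Paralog pairs were read side by side. Rps27 and Rps27l, which differ at a few residues, had opposite estimates after bleomycin. Rps27 held 61.3 to 86.9 CPM in naive and 39.9, 65.3, 76.0, 39.6 and 64.0 in bleomycin 1 to 5, a difference of -0.34 (adjusted p 0.193 by edgeR). Rps27l (ENSMUSG00000036781, chromosome 9, 66946086 to 66949516) held 18.1, 16.7, 14.1 and 14.9 CPM in naive and 15.6, 35, 29.1, 16.7 and 25.5 in bleomycin 1 to 5. Bleomycin 2, 3 and 5 lay above all naive libraries and bleomycin 1 and 4 among them. Its difference was 0.63 (SE 0.23, adjusted p 0.0644 by edgeR), and it was called in 7 of 20 alternative fits (0.47 to 0.91, adjusted p up to 0.165). Leaving out bleomycin 1 gave 0.75 (adjusted p 0.0188 by edgeR) and leaving out bleomycin 4 gave 0.74 (0.0247). These are its 2 lowest bleomycin libraries, so those higher values follow from the choice and support nothing. It was not called with any other single library left out.

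Rpl7 held 243 to 285 CPM in naive and 147, 197, 266, 165 and 232 in bleomycin 1 to 5 (-0.36, adjusted p 0.0940 by edgeR), while Rpl7l1 held 45 to 48.9 and 48.7, 72.5, 53.0, 61.9 and 56.7 (0.31, adjusted p 0.121). Rpl7l1 was the pair's higher estimate after ISRIB too, with Rpl7 at -0.03. Rpl22 (-0.17, adjusted p 0.484) and Rpl22l1 (-0.00083, adjusted p 0.999), which are known to regulate each other's RNA, did not pass, at 149 ± 15.3 and 8.96 ± 3.03 CPM in naive libraries (SD, n = 4). Bleomycin gave 133 ± 33.2 and 8.92 ± 3.15 CPM for this pair (SD, n = 5), by the same edgeR fit.

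The X-linked Rpl36a held 56.9 ± 11.5 and 49.0 ± 12.3 CPM (-0.21, adjusted p 0.459 by edgeR) and its autosomal retrogene Rpl36al 10.4 ± 1.03 and 13.5 ± 3.59 (0.39, adjusted p 0.285). After ISRIB, Rpl36al lay lower in every library (87.4 ± 1.39 against 81.6 ± 0.997 CPM), as did 4.39% of all genes. It did not pass (-0.10, adjusted p 0.348 by edgeR). Rps4x was at -0.12 after bleomycin (adjusted p 0.617) and Rps4l, with 2.38 to 6.84 CPM in naive and 1.59 to 12.5 in bleomycin libraries, at 0.76 (adjusted p 0.271, 95% interval -0.22 to 1.75), both by edgeR. Rpl39 was at 0.37 (adjusted p 0.519 by edgeR) with Rpl39l at 0 counts. Reads of near-identical copies may be shared: processed copies named after Rps10 held 16.6% as many counts as Rps10 itself in the total RNA set, and Rps6 had 8.08%.

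Some members act outside the ribosome. Rpl5 and Rpl11 form with 5S rRNA the complex that binds MDM2 and so raises p53, and Rpl26 binds p53 mRNA. Rpl5 held 154 to 185 CPM in naive and 89.4 to 169 in bleomycin libraries (-0.32, adjusted p 0.145), Rpl26 138 to 160 and 86.2 to 151 (-0.29, adjusted p 0.132) and Rpl11 65.2 to 69.7 and 49.8 to 81.8 (-0.01, adjusted p 0.961, all by edgeR), the last with a sign that turned with library totals and without the filter. After ISRIB these 3 stood at 0.0092, 0.03 and 0.04, none past the threshold.

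Rps6, whose phosphorylation is a common readout of mTORC1, stood at -0.06 after bleomycin (79.3 ± 8.44 and 76.2 ± 6.55 CPM, adjusted p 0.788 by edgeR), with the sign turned under library totals, and at 0.04 after ISRIB. Rps19, the gene most often mutated in Diamond-Blackfan anaemia, was at -0.31 (adjusted p 0.102), and Rpl3, whose product reaches towards the peptidyl transferase centre, at -0.21 (adjusted p 0.286). Rps25, needed by some internal ribosome entry sites, was at -0.32 (adjusted p 0.196) and Rps20 at -0.18 (adjusted p 0.530). Rpsa, also known as a laminin receptor, was at 0.25 (202 to 216 and 194 to 290 CPM, adjusted p 0.170), and Rpl13a, which takes part in the GAIT complex, at 0.10 (adjusted p 0.71), a sign that turned with GC and length trends removed. Rps27a, made as a fusion with ubiquitin, was at 0.04 (adjusted p 0.918), a sign that turned with limma-voom and with the replicate block. These p-values are from the same edgeR fit.

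Of the genes outside the symbol rule, Rack1, a scaffold on the small subunit, stood at 0.05 after ISRIB and -0.10 after bleomycin (adjusted p 0.677 and 0.676 by edgeR). Fau, a ubiquitin-like fusion with Rps30, stood at 0.11 and 0.16 (0.355 and 0.582). Adding such genes from outside the symbol rule to the members left the counts of called members at 0 for ISRIB and at 5 lower and 1 higher for bleomycin.

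Genes that serve ribosome production were read as lists. Of 55 ribosome assembly factors tested after bleomycin, 12 were called higher and 1 lower, with a median log2 fold change of 0.22 (47 of 55 higher), beside 20.5% called and a median of 0.0026 for all genes. Rrp12, which helps export pre-ribosomes, went from 4.04 ± 0.995 (SD, n = 4) to 12 ± 4.58 CPM (n = 5), a change of 1.56 (SE 0.35, adjusted p 0.00367 by edgeR). Nhp2, of the H/ACA snoRNPs, changed by 1.10 (adjusted p 0.0209) and Rrs1, which acts in 5S particle recruitment, by 0.84 (adjusted p 0.0135). Heatr1, a part of the small-subunit processome, fell from 129 ± 16.4 to 87.7 ± 13.5 CPM, a change of -0.56 (adjusted p 0.00532).

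The mitochondrial ribosome, built from a separate set of nuclear genes, had 6 of 75 tested genes called higher and 0 lower, with a median of 0.27 (62 of 75 higher). The 8% called lay below the 20.5% of all genes. Mrps6 changed by 1.40 (adjusted p 0.00397), Mrpl46 by 1.24 (adjusted p 0.0107) and Mrps2 by 0.97 (adjusted p 0.0308), all by edgeR. Of 12 factors that escort new ribosomal proteins, Ipo9 (0.38) and Nap1l1 (0.36) were called higher and none lower, with a median of 0.27. Among 23 RNA polymerase I and III and rDNA factors, Polr3g (-0.92, adjusted p 0.0495 by edgeR) was called lower and none higher, with a median of 0.02. The shares called, 16.7% of escort factors and 4.35% of polymerase and rDNA factors, were also below that of all genes.

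In the list of mTORC1, LARP1 and MYC genes, 1 of 23 was called higher and 3 lower (17.4% called, against 20.5% of all genes). Sesn2, a stress-induced inhibitor of mTORC1, went from 19.9 ± 3.48 to 36.2 ± 6.33 CPM (0.85, adjusted p 0.00246 by edgeR). Deptor, an inhibitor within the mTOR complexes, went from 148 ± 14.8 to 65.5 ± 8.91 CPM (-1.17, adjusted p 3.37e-06). Mxd4, an antagonist of MYC, changed by -0.40 (adjusted p 0.0471) and Rps6kb1, the S6 kinase, by -0.39 (adjusted p 0.0419). Of 19 elongation factor and other TOP mRNA genes, Vim (1.83, adjusted p 0.0182 by edgeR) and Nap1l1 were called higher and none lower. Their share called was 10.5%, and the median of the list was -0.04. Vim is also a mesenchymal gene and stood at 3.06 ± 2.33 CPM in naive libraries. The fibroblast marker sum was also higher after bleomycin, and the part of fibroblasts in the Vim value was not tested.

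After ISRIB the same lists gave few calls, beside 2.2% of all genes called. The calls were 3.57% of the assembly factors and 4.35% of the RNA polymerase I and III and rDNA factors. Among 56 assembly factors, Bysl, a factor of small-subunit assembly, went from 14.9 ± 2.10 to 21.3 ± 3.22 CPM (SD, n = 4 each), a change of 0.51 (adjusted p 0.0319 by edgeR), and the helicase gene Ddx21 from 49.8 ± 2.87 to 60.3 ± 3.91 CPM, a change of 0.28 (adjusted p 0.0371). Taf1c, of the RNA polymerase I selectivity factor, went from 4.55 ± 0.281 to 7.77 ± 0.601 CPM, a change of 0.76 (adjusted p 0.00961), the 1 gene called of 23 in its list. For these 3 the groups did not overlap, with ISRIB above, as for 4.26% of all genes. They are named because they were called, so this adds no support. In the other lists no gene was called: 0 of 19 TOP mRNA genes (median 0.08), 0 of 24 mTORC1, LARP1 and MYC genes (0.01), 0 of 11 escort factors (0.0088) and 0 of 76 mitochondrial ribosomal proteins (-0.0085).

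**Figure D5:**
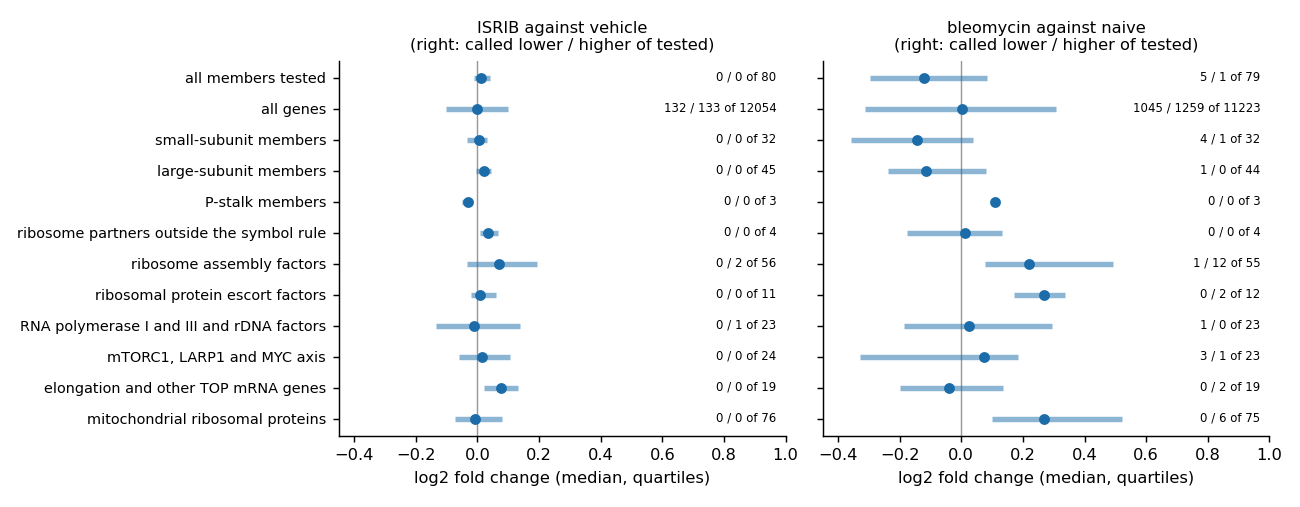
Median log2 fold change (point) and quartiles (bar) of the members, their subunits, all genes and the lists of ribosome production, with the number called lower and higher of those tested at right. After bleomycin the members' median (-0.12) lies below 0, while assembly factors (0.22), escort factors (0.27) and mitochondrial ribosomal proteins (0.27) lie above it.

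The members share features that the symbol rule did not use. Of 79 protein-coding members tested in the poly(A) set, 29 (36.7%) hold at least 1 snoRNA gene within the gene on the same strand, 56 snoRNA genes in all, against 1.81% of 11468 protein-coding genes tested. They are spread over the genome, with 14 of the 80 tested members on chromosome 7, 7 each on chromosomes 9, 11 and 17, and 4 on X. Their principal transcripts are short, with a median log2 length of 9.78 against 11.6 for all genes, while GC content is close to that of other genes (51.0% against 49.7%). Across members the log2 fold change after bleomycin had a Spearman's rho of -0.22 with mean level, 0.12 with GC content and 0.02 with length, over 79 genes measured in the same libraries. Over all genes tested the same values of rho were 0.04, 0.16 and -0.06. Of these 79 members, 16 were estimated higher in both comparisons, 21 lower in both and 42 in opposite directions.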

How the data were processed

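The deposited values are read counts per gene for 17 libraries, whole numbers in 1 table per kit, made by the authors. Per the submitters' processing notes, bcl2fastq 2.19.1, FastQC, Trimmomatic 0.36, STAR 2.6.0, HTSeq 0.11.2 and mm10 were used. Neither the annotation nor the strand setting of HTSeq is given in the sources used here. Gene IDs were matched to GENCODE M21 (GRCm38), and 42546 had a symbol. Each set was filtered (filterByExpr, minimum count 10, total 15), given TMM factors, and fitted by group alone in edgeR 4.0.16 under R 4.3.3, with its quasi-likelihood test (two-sided). Benjamini-Hochberg adjustment ran over all genes tested, with a threshold of 0.05. CPM are TMM-scaled, except in marker sums and shares, which use library totals. The SE was taken as the ratio of the log2 fold change to the square root of F. The procedure was also run on simulated counts, drawn gene by gene without shifts shared by the members of a library. The outcome is not given here and supports no result above.

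Members, gene lists and tests were chosen with earlier results of these data known. Named genes are the called members, the top and bottom 5 by level, paralog pairs, a panel of genes and called genes of each list (at most 3 each way). Motifs, the run length of 8, the principal transcript as length (the union of exons was the first choice), the ribosomal-RNA-like models Gm23935 and Mir6236, further examples by extreme value, and the fits without 2 libraries were chosen after seeing the data. Alternatives were RLE, upper-quartile and total scaling, TMM without abundant classes, no filter, DESeq2 1.42.0, limma-voom (limma 3.58.1), a replicate block, GC and length trends, and each library left out. Replicates within a group differed by more than counting error (chi-squared per degree of freedom at least 3.50), so none was merged. Some results for genes the naming rule covers are not reported here, though counts over members include them.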

Additional observations from a re-analysis of the deposited data

Results flagged for a closer look

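In groups of 4 or 5 libraries, 5 values of named genes stood further from the rest of their group than Dixon's 95% limit, which chance alone passes in about 1 of 20 groups. The check covered 74 results for named genes, each in both groups of its comparison, and the members' share and subunit ratio. With so many groups, several are passed by chance alone, so these 5 are listed for a look and not as proven outliers. For Rps4x, vehicle 2 (422 CPM) was highest and the next library was at 380, a gap of 0.856 of the group's range. Rpl7l1 was highest in ISRIB 4 (85.8 CPM, next 77.5, 0.867). Rpl10 was highest in naive 2 (240 CPM, next 195, 0.868). Bleomycin 1 was the lowest library of its group for Rps27a (41.5 CPM, next 102, 0.865) and for Rack1 (140 CPM, next 211, 0.758).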

How the results depend on the processing

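No member was called after ISRIB under any of the 22 alternatives, and the members' median stayed between -0.010 (without ISRIB 1) and 0.066 (without ISRIB 2 and 4, chosen after seeing marker sums). After bleomycin the reported 5 lower and 1 higher became 2 and 2 with library totals, 8 and 3 with no filter, 9 and 0 with the replicate block, 11 and 1 with GC and length trends removed, 16 and 1 with that removal and the replicate block, and 2 and 9 without bleomycin 1 and 4. Leaving out single libraries gave 2 to 10 lower and 0 to 6 higher, while 13.3% to 23.4% of all genes were called. Over all these fits that share ran from 9.63% (no filter) to 26.5% (without bleomycin 1 and 4). The cause was not tested. Centred by group, same-numbered libraries correlated at -0.11 to 0.08 (ISRIB) and -0.04 to 0.05 (bleomycin). Differently numbered libraries were not set beside them, so these values cannot decide whether replicate numbers pair the libraries. Of 74 log2 fold changes of named genes, 30 changed sign under some alternative, 0 of them past the threshold. Low depth in the total RNA set (3295257 to 6333166 counts) limits Rps4l, Rpl22l1 and Rpl39.

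In the ISRIB comparison, some log2 fold changes of named genes near 0 changed sign. Upper-quartile factors turned the sign of Rps15 (-0.0051). Library totals turned the sign of Rpl8 (0.0099), Rplp0 (0.0068), Rpsa (0.0032), Rpl13a (0.0099) and Rpl38 (0.0089). Removal of GC and length trends turned the sign of Rpl8 (0.012), Rplp0 (0.00097), Rpl13a (0.0036) and Rpl38 (0.012). The same removal with the replicate block turned the sign of Rpl8 (0.011), Rplp0 (0.00067), Rpl13a (0.0028) and Rpl38 (0.017). Leaving out ISRIB 2 and 4 turned the sign of Rpl8 (0.047), Rplp0 (0.047), Rpl10 (0.058), Rpl7 (0.037), Rpsa (0.037), Rplp2 (0.044), Rpl13a (0.053), Rpl38 (0.066) and Rps25 (0.051). Leaving out single libraries turned it for Rps15 (-0.020 to 0.031), Rpl8 (-0.029 to 0.020), Rplp0 (-0.030 to 0.017), Rps15a (-0.020 to 0.063), Rpl22l1 (-0.051 to 0.093), Rps4l (-0.23 to 0.031), Rpl10 (-0.065 to 0.015) and Rpl5 (-0.021 to 0.044). It also did so for Rps14 (-0.015 to 0.075), Rps19 (-0.015 to 0.060), Rpsa (-0.051 to 0.014), Rplp2 (-0.068 to 0.0099), Rps27a (-0.0012 to 0.048), Rpl13a (-0.030 to 0.023), Rpl38 (-0.072 to 0.052) and Rps25 (-0.077 to 0.0092).

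In the bleomycin comparison, some log2 fold changes of named genes near 0 changed sign. Library totals turned the sign of Rpl36 (0.068), Rpl22l1 (0.080), Rpl11 (0.058) and Rps6 (0.013). No filter turned the sign of Rpl36 (0.022), Rpl22l1 (0.022) and Rpl11 (0.010). Limma-voom turned the sign of Rpl22l1 (0.0036) and Rps27a (-0.0060). The replicate block turned the sign of Rps27a (-0.048). Removal of GC and length trends turned the sign of Rpl13a (-0.023), Rpl36 (0.24), Rpl22l1 (0.014) and Rplp2 (-0.017). The same removal with the replicate block turned the sign of Rpl13a (-0.039), Rpl36 (0.19), Rpl22l1 (0.016), Rplp0 (-0.0022), Rplp2 (-0.023) and Rps27a (-0.024). Leaving out bleomycin 1 and 4 turned the sign of Rpl8 (0.015), Rpl36 (0.20), Rpl22l1 (0.096), Rps4x (0.044), Rpl11 (0.17), Rps6 (0.023), Rps20 (0.076) and Rack1 (0.0014). Leaving out single libraries turned it for Rpl13a (-0.0011 to 0.22), Rpl36 (-0.11 to 0.12), Rpl22l1 (-0.20 to 0.18) and Rpl11 (-0.093 to 0.074). It also did so for Rps6 (-0.10 to 0.016), Rps27a (-0.082 to 0.23), Rack1 (-0.18 to 0.017) and Fau (-0.012 to 0.30).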
